A study of Mus musculus with 39 samples.

Results

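The 10 genes described here encode 7 inhibitors of cyclin-dependent kinases (Cdkn1a, Cdkn1b, Cdkn1c, Cdkn2a, Cdkn2b, Cdkn2c and Cdkn2d), the tumour suppressor p53 (Trp53), its ubiquitin ligase (Mdm2) and lamin B1 (Lmnb1). They were taken by symbol from the deposited tables, which hold 24537 genes for kidney, liver and lung and 52508 for skin, and all 10 were found in both. RNA was measured in 39 libraries from C57BL/6 Prf1-/- male mice, in which the gene for perforin, the pore-forming protein of cytotoxic lymphocytes, is knocked out. Young mice were killed at 3 months, untreated. Old mice were killed at 20 months after vehicle or ABT-737, an inhibitor of anti-apoptotic BCL-2 family proteins, injected at 25 mg/kg on 2 days running, monthly, over 2 months that began at 18 months of age. Each tissue had 3 vehicle and 3 ABT-737 libraries and 4 young ones, or 3 young in skin. All groups carried the knockout, so the data hold no comparison with perforin-sufficient mice, and no untreated old group was analysed here. A change with age below means vehicle against young mice, in which age and the vehicle injections cannot be told apart. The labels name the agent ABT-738 and ABT-739 for ABT-737 replicates 4 and 5, and these were kept in the ABT-737 group. Libraries were made from whole tissue by a bulk form of MARS-seq, which reads the 3′ ends of transcripts, and the deposited values are counts per gene.

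CDK inhibitors hold cells in G1. Those of the Cip/Kip family (p21, p27 and p57) bind complexes of cyclins with CDK2 and others, whereas those of the INK4 family (p16, p15, p18 and p19) bind CDK4 and CDK6 and so keep the retinoblastoma protein active. p53 induces p21 and its own antagonist Mdm2, and the Cdkn2a locus also encodes Arf, which restrains Mdm2. In senescent cells p16 and p21 are commonly raised and lamin B1, a structural protein of the inner nuclear membrane, is commonly lost. p21 is also induced by glucocorticoids, fasting and damage without senescence, and Lmnb1 is abundant in leukocytes and in dividing cells.

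Levels are given as CPM, counts per 1000000 counts of the library after TMM scaling, or, near the detection floor, as raw counts. A gene is called where edgeR's quasi-likelihood test gave a Benjamini-Hochberg adjusted p under 0.05 over all genes tested in that tissue. Median total counts were 547867 in liver, the shallowest tissue, 1928934 in lung, 2172924 in kidney and 2485280 in skin. The expression filter kept 9 of the 10 genes in lung and 9 in skin, 8 in kidney and 2 in liver (Cdkn1a and Mdm2), and Cdkn2a passed in no tissue. The summed markers of each tissue were in place: kidney tubule genes reached 12477 to 15046 CPM in kidney, hepatocyte genes 65897 to 104675 in liver, surfactant and other lung epithelial genes 30161 to 63348 in lung and keratinocyte genes 10285 to 37414 in skin. The 8 hepatocyte genes were also counted outside liver, most in kidney, at 1771 to 2313 CPM in young mice, 1173 to 1485 with vehicle and 1543 to 2531 with ABT-737. They stood at 45.0 to 383 CPM in young lungs, 4.86 to 37.6 with vehicle and 16.1 to 835 with ABT-737, and at 46.3 to 442 in skin. In lung 2 of 5 tested were called lower with age (Ttr by -4.16 and Ahsg by -3.23), beside 12.9% of all genes. In kidney 2 of 5 were called with age (Fgb by 2.33 and Ttr by -1.65), beside 13.3% of all genes. The part of these genes in the lung and kidney results was not tested. The lung epithelial list summed to 4097 to 6194 CPM in kidney, where only 1 of its 8 genes passed the expression filter. Prf1 was still counted, with 15 to 169 counts per skin library, 1 to 68 in lung, 1 to 11 in kidney and 0 to 4 in liver, and because counts from the 3′ end need not lie in the disrupted part, the genotype rests on the labels. Whole tissue was sequenced, so fewer cells of a type and less RNA per cell cannot be told apart.

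Cdkn2a and Cdkn1a have more than 1 start site, and a count taken at the 3′ end does not say which start made the transcript. This matters most for Cdkn2a, whose upstream start (chr4:89294619) gives Arf and whose start 12427 bases downstream gives p16; in GENCODE vM21 the p16 and Arf transcripts end at positions 89274471 and 89274541, and the deposited row of the first table carries the coordinates of the Arf form (chr4:89274473-89294619, - strand). Cdkn2b lies beside it, 11645 bases from the Cdkn2a gene model. For Cdkn1a, the row of the first table starts at the second of 2 starts that lie 2790 bases apart. The 250 bases before each of these 4 starts are shown from RefSeq (GRCm38.p6), 5′ to 3′ on the gene's strand, to set side by side the starts of each gene that share 1 count, with capitals on each GC box (GGGCGG, either strand).
Cdkn2a, before the Arf start (chr4:89294620-89294869, - strand): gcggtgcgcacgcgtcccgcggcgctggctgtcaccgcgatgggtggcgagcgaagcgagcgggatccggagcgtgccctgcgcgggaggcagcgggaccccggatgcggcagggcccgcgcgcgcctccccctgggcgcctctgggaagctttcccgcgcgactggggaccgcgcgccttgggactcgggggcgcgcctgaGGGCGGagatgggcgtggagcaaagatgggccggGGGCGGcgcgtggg
Cdkn2a, before the p16 start (chr4:89282193-89282442, - strand): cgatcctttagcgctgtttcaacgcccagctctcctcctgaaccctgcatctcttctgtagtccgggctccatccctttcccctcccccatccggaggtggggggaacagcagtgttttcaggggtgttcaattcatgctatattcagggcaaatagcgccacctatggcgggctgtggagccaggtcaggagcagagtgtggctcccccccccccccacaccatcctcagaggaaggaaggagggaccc
Cdkn1a, before the upstream start (chr17:29090729-29090978, + strand): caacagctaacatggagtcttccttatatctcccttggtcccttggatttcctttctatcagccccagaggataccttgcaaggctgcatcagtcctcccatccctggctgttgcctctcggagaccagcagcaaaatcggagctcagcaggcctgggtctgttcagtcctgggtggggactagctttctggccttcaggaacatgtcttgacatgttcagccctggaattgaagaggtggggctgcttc
Cdkn1a, before the downstream start (chr17:29093519-29093768, + strand): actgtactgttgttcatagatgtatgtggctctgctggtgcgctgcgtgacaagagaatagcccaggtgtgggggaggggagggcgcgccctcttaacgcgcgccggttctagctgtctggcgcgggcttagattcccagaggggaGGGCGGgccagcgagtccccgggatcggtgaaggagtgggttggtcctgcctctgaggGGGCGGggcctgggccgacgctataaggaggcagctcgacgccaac
The Arf window held 2 GC boxes and 78.4% G and C, the p16 window held 0 and 60%, the upstream Cdkn1a window held 0 and 54%, and the downstream one held 2 and 64.8%. Of all 32851 promoters in the table, 32.7% held a GC box in the same 250 bases and the median share of G and C was 52.4%. No CCAAT box (CCAAT, either strand), TATA box (TATAAA) or E-box (CACGTG) lay in these 4 windows, against 33.9%, 12.4% and 6.02% of all promoters with one. Of the 10 genes 8 had an entry in that table.

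Cdkn1a, which encodes p21 (RefSeq NM_007669, chr17:29093769-29100722, mm10), was called higher with age in kidney and liver. In kidney it stood at 33.9, 29.5, 26.3 and 26.3 CPM in the 4 young mice, at 86.8, 187 and 89.2 in the vehicle group and at 70.9, 92.0 and 61.8 after ABT-737. Both old groups lay wholly above the young mice and overlapped each other. The change from young to vehicle was 2.04 on the log2 scale (SE 0.24, 4.12-fold, adjusted p = 4.38e-05), in a comparison that called 13.3% of 11123 genes, and that from young to ABT-737 was 1.37 (SE 0.25, 2.59-fold, adjusted p = 0.00811), where 2.12% of genes were called. Between ABT-737 and vehicle the difference of -0.67 (SE 0.25, adjusted p = 0.218) did not pass, in a comparison with 1.35% of genes called. Vehicle replicate 4 was the highest kidney library, and without it the first change was 1.60 (adjusted p = 5.00e-05) and the ABT-737 difference -0.23 (adjusted p = 0.792).

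In liver Cdkn1a was close to the floor in young mice and well counted in all old ones. Young livers gave 2, 5, 3 and 2 counts, vehicle livers 96, 387 and 52, and ABT-737 livers 63, 252 and 120, which correspond to 3.8 to 7.45 CPM, then 419, 453 and 66.8, then 250, 478 and 297. The pooled counts of vehicle and young livers stood in a ratio of 56.5 (exact 95% interval for counting error 32.1 to 110). It was 28.9 (16.0 to 57.2) without vehicle replicate 4 and 87.7 (49.7 to 171) without vehicle replicate 5. The fitted changes were 5.86 for vehicle against young (SE 0.62, adjusted p = 1.69e-05) and 6.03 for ABT-737 against young (SE 0.62, adjusted p = 7.13e-05), in comparisons that called 22.6% and 8.4% of 5583 genes. Cdkn1a passed the expression filter on its counts in old livers, so these calls against young livers are not independent of that filter. ABT-737 and vehicle livers did not differ detectably, at 0.16 (SE 0.46, 95% interval -0.74 to 1.07, adjusted p = 0.926), in a comparison that called 3.85% of genes.

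In lung, where young mice already had 369, 478, 346 and 312 CPM, the vehicle group stood at 496, 1509 and 254 and the ABT-737 group at 823, 1015 and 324. The groups overlapped, with 1 vehicle library far above the rest and another below every young mouse. The differences of 1.0 for vehicle against young (SE 0.50, adjusted p = 0.200) and 0.94 for ABT-737 against young (SE 0.50, adjusted p = 0.317) did not pass, in comparisons that called 12.9% and 2.55% of 11949 genes, and without vehicle replicate 4 the former was -0.01. ABT-737 and vehicle lungs differed by -0.07 (SE 0.54, adjusted p = 0.964), or by 0.94 (adjusted p = 0.258) without that library. In skin Cdkn1a stood at 344, 372 and 440 CPM in young mice, 702, 552 and 717 with vehicle and 449, 922 and 916 with ABT-737. Each old skin lay above each young one, yet neither 0.77 (SE 0.29, adjusted p = 0.106) nor 0.98 (SE 0.29, adjusted p = 0.0741) passed in the fit of all 3 groups, in comparisons that called 11.2% and 5.17% of 14224 genes. The first of these passed when only the compared groups entered the fit (adjusted p = 0.0397) or without ABT-737 replicate 3 (adjusted p = 0.0325), and the second under DESeq2 (adjusted p = 0.0200), without an expression filter (0.0431) or without ABT-737 replicate 3 (0.00955). ABT-737 and vehicle skins differed by 0.21 (SE 0.29, adjusted p = 0.893).

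**Figure D1:**
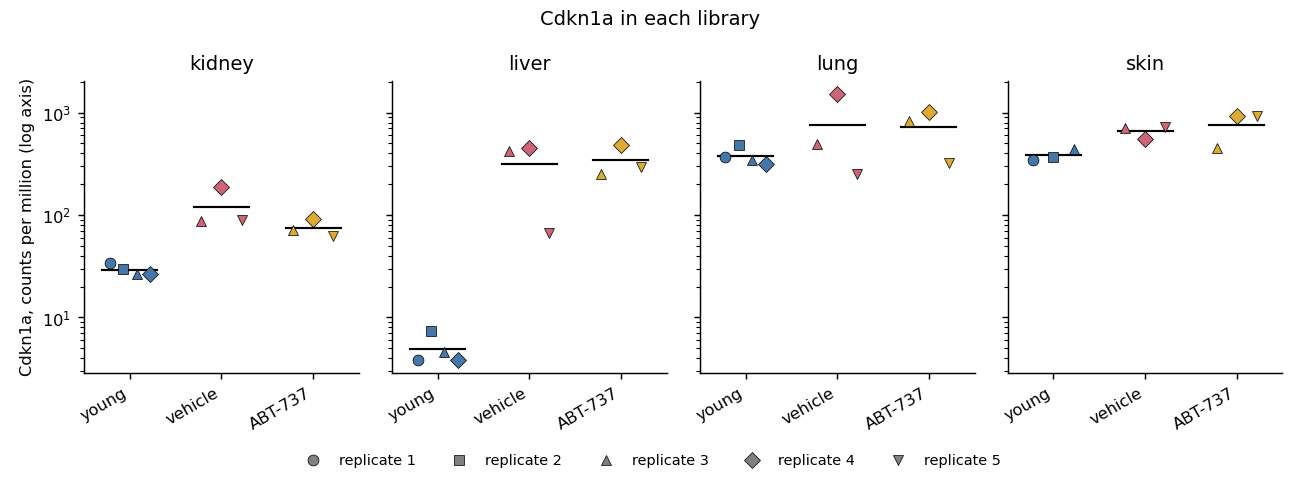
Cdkn1a in every library, in CPM on a log axis, by tissue and group; each point is a library, its shape gives the replicate number and the line is the group mean. The 6 old livers lie between 66.8 and 478 and the 4 young ones between 3.8 and 7.45, whereas in lung the vehicle libraries spread from 254 to 1509 around the young range.

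The change of Cdkn1a with age was tested between tissues in 1 fit of the 30 kidney, liver and lung libraries. It was larger in liver (5.88) than in kidney (2.02), by 3.86 on the log2 scale (SE 0.85, adjusted p = 0.0154), where 0.786% of 13107 genes differed between these tissues. The change in lung (0.99) was smaller than in liver, by 4.90 (a difference of -4.90, SE 0.83, adjusted p = 0.000274), where 11.4% of genes differed. Lung and kidney were not shown to differ (-1.04, SE 0.64, adjusted p = 0.329), in a comparison that called 8.04% of genes, although without lung vehicle replicate 4 the difference was -2.03 (adjusted p = 0.0204). The liver and kidney difference missed the threshold without liver young replicate 3 (adjusted p = 0.0512) or liver vehicle replicate 4 (adjusted p = 0.0915). Libraries of different tissues may come from the same mice, which the labels do not say, and the fit treated them as independent. No other gene of the set was called in these 3 comparisons, and Cdkn1c was nearest, with a lung minus kidney difference of -1.42 (SE 0.46, adjusted p = 0.0506) that passed without lung vehicle replicate 3 (-1.94, adjusted p = 0.0103) and, at values from -1.44 to -1.41, without liver young replicate 1 or 4, liver vehicle replicate 3 or any 1 of the 3 lung ABT-737 libraries. For ABT-737 against vehicle none of the 9 genes tested differed between tissues, where 0.0839% of genes were called between liver and kidney, 0.29% between lung and liver and 0% between lung and kidney. In the last, edgeR called 0 of 13107 genes and 1219 had an unadjusted p under 0.05.

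Other gene groups also differed between the groups of mice, in part in other tissues than Cdkn1a. The 14 glucocorticoid and fasting response genes summed to 937 to 1258 CPM in young livers, 2034 to 15276 with vehicle and 1401 to 2695 with ABT-737; 6 of 12 tested were called higher with age, led by Mt2 (7.84), Lcn2 (7.49), Mt1 (5.65) and Ddit4 (3.03) on the log2 scale. In kidney 4 of 14 were called higher with age (Lcn2, Pdk4, Angptl4 and Sgk1), in skin 3 of 13 (Lcn2, Cpt1a and Mt2), and in lung 1 was called higher (Sgk1) and 2 lower (Per1 and Klf9) of 13. Of all genes tested, 22.6% were called in liver, 13.3% in kidney, 11.2% in skin and 12.9% in lung. In kidney the sums overlapped between groups (1872 to 2205 CPM in young mice, 1858 to 3213 with vehicle and 1686 to 2551 with ABT-737). They also overlapped in lung (2220 to 2563, 1449 to 2717 and 1481 to 2626) and skin (2446 to 2692, 2404 to 4784 and 2481 to 3359). With ABT-737 against vehicle, 3 of 12 were called lower in liver (Lcn2, Mt1 and Mt2) and none in kidney (median -0.16), lung (-0.03) or skin (-0.08), whereas Cdkn1a in liver was not called. That comparison called 3.85% of all liver genes tested. All 7 leukocyte markers tested in liver were called lower in it as well. Which response moved Lcn2, Mt1 and Mt2 was not tested. Summed over the glucocorticoid and fasting list, vehicle replicate 4 was the highest vehicle library in all 4 tissues (15276 CPM in liver, 4784 in skin, 3213 in kidney and 2717 in lung). This replicate had the highest Cdkn1a of the vehicle group in kidney, liver and lung but the lowest in skin. Circadian clock genes, whose levels follow the time of day, also differed with age, with 9 of 16 tested called in lung, 9 of 15 in kidney, 8 of 15 in skin and 3 of 8 in liver, beside the shares of all genes given above. Dbp and Nr1d1 were called lower in the vehicle group in all 4 tissues (Dbp at -3.93 in kidney and -4.42 in skin). No clock gene was called between ABT-737 and vehicle, with medians of 0.10, 0.17, 0.48 and -0.07 in kidney, liver, lung and skin. The part of these gene groups in the Cdkn1a result was not tested.

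Cdkn1b encodes p27 (chr6:134920401-134925525), which is regulated largely after translation. It was not called with age or with ABT-737 in any tissue. Young and vehicle kidneys had 5.15 to 9.66 and 6.10 to 7.85 CPM, lungs 9.88 to 32.0 and 13.5 to 16.8, and skins 5.75 to 10.9 and 3.52 to 11.9. The differences with age were -0.20 in kidney (95% interval -0.77 to 0.37), -0.39 in lung (-1.28 to 0.49) and -0.14 in skin (-1.19 to 0.92), so that changes inside these intervals were not detectable here. With 1 library left out the skin value ran from -0.86 to 0.16. In liver it had 3 to 5 counts in young mice, 0, 0 and 5 with vehicle and 2 to 4 with ABT-737.

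Cdkn1c encodes p57 (chr7:143458339-143461050), the imprinted member of the family, and was called higher with age in kidney and skin. In skin it stood at 13.0, 22.4 and 18.6 CPM in young mice, 40.4, 65.5 and 36.7 with vehicle and 36.3, 20.8 and 36.6 with ABT-737. Vehicle skins lay above both other groups, and the change with age of 1.39 (SE 0.33, 2.61-fold, adjusted p = 0.0311) was called, while the ABT-737 difference of -0.60 (SE 0.31, adjusted p = 0.679) was not. In kidney the young mice had 20.2, 27.8, 23.1 and 18.0 CPM, the vehicle group 42.0, 41.0 and 27.2 and the ABT-737 group 50.9, 38.1 and 31.7. Vehicle against young was 0.70 (SE 0.22, 1.62-fold, adjusted p = 0.0432) with overlapping ranges, and ABT-737 against young was 0.83 (SE 0.21, adjusted p = 0.0545) without overlap, which passed without ABT-737 replicate 5 (adjusted p = 0.0427), without an expression filter (0.0223) and under DESeq2 (0.0317). The kidney call was lost without young replicate 1, 3 or 4 or vehicle replicate 3 or 4 (adjusted p from 0.0927 to 0.142), and the skin call without any 1 of the 3 young libraries or vehicle replicate 4 or 5 (0.0547 to 0.117).

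In lung Cdkn1c was lowest in the vehicle group, at 32.2, 18.4 and 7.86 CPM against 27.5, 27.1, 40.2 and 29.1 in young mice, and highest after ABT-737, at 60.5, 46.4 and 38.0. The vehicle and ABT-737 ranges did not overlap. Neither the difference with age of -0.71 (SE 0.39, adjusted p = 0.238) nor the ABT-737 difference of 1.34 (SE 0.41, 2.54-fold, adjusted p = 0.147) was called; with the replicate number as a block the latter was 1.47 (adjusted p = 0.0571). In this comparison of ABT-737 with vehicle edgeR called 0% of 11949 lung genes, although 1919 had an unadjusted p under 0.05 and DESeq2 called 342, and Cdkn1c was called by neither. In liver it had 0 to 3 counts per library. A gene annotated as antisense, Gm44732, overlaps 892 bases of Cdkn1c on the other strand. The gene AC167363.2, annotated as TEC and not as antisense, overlaps 1046 bases of the Cdkn1a gene model, also on the other strand. Whether counting used strand is not given in the sources used here, so their counts cannot be told apart from those of the inhibitors.

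Cdkn2a was at or near the floor everywhere, and raw counts are given. In young mice it had 0, 0, 1 and 1 counts in kidney, 0 in all 4 livers, 0, 0, 1 and 0 in lung and 1, 0 and 0 in skin. Vehicle mice had 11, 8 and 24 in skin, 4, 9 and 18 in lung, 2, 3 and 2 in kidney and 0, 2 and 2 in liver. After ABT-737 the counts were 2, 1 and 3 in skin, 1, 1 and 10 in lung and 0 in all 3 kidneys and all 3 livers. The vehicle group lay above the young mice without overlap in kidney, lung and skin, and above the ABT-737 group without overlap in kidney and skin.

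Scaled by library depth, pooled Cdkn2a counts of vehicle against young stood in a ratio of 34.6 in lung (exact 95% interval 5.76 to 1409), 26.3 in skin (4.47 to 1061) and 6.58 in kidney (1.25 to 64.9). In liver, where young mice had none, assuming 3 counts for the young group gave a ratio of 1.69. This assumption leaves out the counting error of the few vehicle counts, so no increase is bounded. For ABT-737 against vehicle the ratio was 0.125 in skin (0.0436 to 0.296) and 0.531 in lung (0.248 to 1.06). In kidney, where ABT-737 mice had none, assuming 3 counts for them put vehicle 2.24-fold higher, again without the counting error of the vehicle counts. In liver the same assumption put vehicle no higher than ABT-737. These intervals cover counting error only, not the spread between mice. Without ABT-737 replicate 5, which held 10 of the 12 counts of its group, the lung ratio for ABT-737 against vehicle was 0.168 (0.0194 to 0.658), and without vehicle replicate 3 it was 0.470 (0.217 to 0.959). In kidney the interval of the ratio with age reached 1 without young replicate 2 (4.51, 0.859 to 44.5), young replicate 1 (5.25) or vehicle replicate 4 (4.94, 0.707 to 54.6), and the ratio was 10.7 without young replicate 4. Without young replicate 2 the skin ratio with age was 17.7, without young replicate 3 it was 15.4, and in lung and skin the ratio with age rests on the 1 count seen in young mice. When every gene with at least 1 count was tested, the age difference passed in lung (adjusted p = 0.00389) and skin (adjusted p = 0.00835) but not in kidney (adjusted p = 0.162), and the skin difference between ABT-737 and vehicle did not (adjusted p = 0.131). In skin, edgeR called 0% of 14224 genes between ABT-737 and vehicle, with 1134 at an unadjusted p under 0.05 and 60 called by DESeq2.

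**Figure D2:**
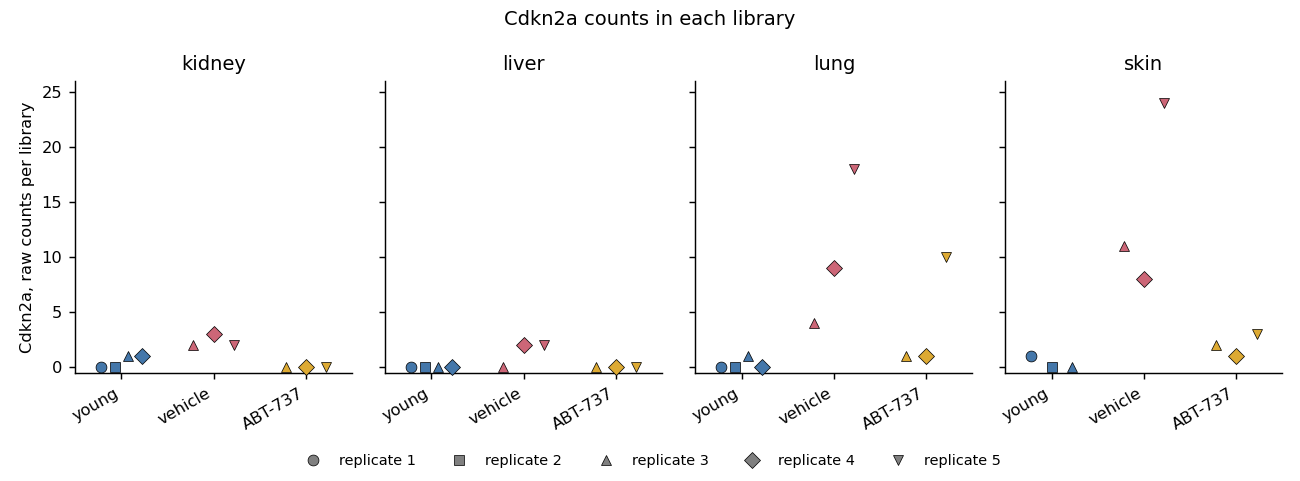
Raw Cdkn2a counts in every library, by tissue and group; each point is a library and its shape gives the replicate number. Young libraries hold 0 or 1 count, vehicle libraries reach 18 in lung and 24 in skin, and ABT-737 libraries hold 0 in kidney and liver, 1 to 3 in skin and 1, 1 and 10 in lung.

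Leukocyte markers moved with the same groups as Cdkn2a. The 17 markers (such as Ptprc, Cd3e, Cd68 and Coro1a) summed in kidney to 172 to 192 CPM in young mice, 499 to 841 with vehicle and 211 to 336 with ABT-737, in liver to 116 to 159, then 855 to 1165, then 125 to 233, in lung to 1483 to 1719.6, then 3564 to 8816, then 1743 to 3745, and in skin to 161 to 468, then 1044 to 2441, then 356 to 776. All 7 tested in liver and all 12 in kidney were called higher with age, as were 9 of 11 in skin and 13 of 17 in lung. Of all genes tested, 22.6%, 13.3%, 11.2% and 12.9% were called with age in these tissues. Between ABT-737 and vehicle 7 of 12 were called lower in kidney (led by Cd8a, at -2.0), 7 of 7 in liver (led by Cd52, at -3.25) and none in lung (median -0.85) or skin (median -1.53), beside 1.35%, 3.85%, 0% and 0% of all genes tested. In young kidney Cd79a was at 0, in young liver Cd3g, Cd79a, Ms4a1 and Itgam, in vehicle liver Cd79a, in ABT-737 liver Cd3e, Cd3g, Cd8a, Cd79a and Ms4a1, in young skin Cd79a and Ms4a1, and in ABT-737 skin Cd79a. The lung library with most Cdkn2a counts, vehicle replicate 5, also had the highest leukocyte sum, as did the skin library with most, vehicle replicate 5. Their part in the Cdkn2a result was not tested.

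Cdkn2b encodes p15 (chr4:89306289-89311032), which is induced by TGF-β. Skin had 8.68, 6.33 and 11.4 CPM in young mice, 21.5, 24.9 and 30.9 with vehicle and 19.5, 25.9 and 28.3 with ABT-737. Both old groups were wholly above the young mice and overlapped each other. The gene rose with age by 1.54 (SE 0.29, 2.90-fold, adjusted p = 0.0167) and was as high after ABT-737, at 1.46 above young (SE 0.29, 2.75-fold, adjusted p = 0.0300), with a difference between ABT-737 and vehicle of -0.08 (95% interval -0.58 to 0.43, adjusted p = 0.970). The first call was lost without young replicate 1 or 2 or vehicle replicate 5 (adjusted p from 0.0533 to 0.0745), and the second without any 1 of the 3 young libraries or ABT-737 replicate 4 or 5 (0.0542 to 0.131).

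In lung Cdkn2b stood at 9.81 to 19.5 CPM in young mice, 15, 19.8 and 35.5 with vehicle and 15.8, 30.3 and 36.2 with ABT-737, and neither 0.61 (SE 0.38, adjusted p = 0.303) nor 0.88 (SE 0.38, adjusted p = 0.203) above young passed. Kidney gave 1 to 15 counts in young mice, 4 to 12 with vehicle and 3 to 9 with ABT-737. In liver 1 count was seen in 10 libraries.

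Cdkn2c (p18, chr4:109660876-109665372) was not called anywhere. Skin came nearest, with 6.51, 6.33 and 6.37 CPM in young mice and 9.23, 8.90 and 9.38 with vehicle, a difference of 0.52 (SE 0.27, adjusted p = 0.225) between groups that did not overlap. In kidney and lung its age differences were 0.29 (SE 0.34) and 0.12 (SE 0.39), and in liver it had 0 to 2 counts.

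Cdkn2d (p19 of the INK4 family, not Arf; chr9:21288464-21291209) rose with age in lung, from 24, 16.7, 33.1 and 19.2 CPM in young mice to 53, 27.4 and 69.6 with vehicle, and stood at 25.1, 25.3 and 36.7 with ABT-737. The lowest vehicle library was within the young range. The change was 1.10 (SE 0.34, 2.14-fold, adjusted p = 0.0460), close to the threshold, and that between ABT-737 and vehicle was -0.77 (SE 0.36, adjusted p = 0.319). The age call was lost without young replicate 1, 2 or 4, vehicle replicate 3 or 5, or ABT-737 replicate 3 (adjusted p from 0.0528 to 0.275). It was also lost with the replicate number as a block (0.65, adjusted p = 0.423). In that fit young replicates 1 and 2 stand alone in their blocks and do not inform the age difference. In kidney the vehicle group had 10.6, 22.6 and 25.8 CPM against 11.6 to 15.5 in young mice (0.50, SE 0.26, adjusted p = 0.229), which passed without vehicle replicate 3 (adjusted p = 0.0177). In liver the counts were 2, 6, 4 and 1 in young mice, 2, 13 and 9 with vehicle and 2, 3 and 0 with ABT-737, and in skin the 3 groups had 33.2 to 38.0, 26.7 to 37.5 and 22.7 to 31.1 CPM.

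Lmnb1 encodes lamin B1. It rose with age in lung, from 11.8, 9.04, 9.23 and 9.36 CPM in young mice to 18.8, 23.2 and 31.8 with vehicle, and stood at 14.2, 16.9 and 17.0 after ABT-737. The 3 groups did not overlap. Vehicle against young was 1.32 (SE 0.29, 2.5-fold, adjusted p = 0.0108), ABT-737 against vehicle -0.63 (SE 0.31, adjusted p = 0.337) and ABT-737 against young 0.69 (SE 0.31, adjusted p = 0.218). The age call was lost without vehicle replicate 5 (1.09, adjusted p = 0.0730). It was also lost with the replicate number as a block (1.24, adjusted p = 0.131), a fit in which young replicates 1 and 2 do not inform the age difference. In kidney the levels were 2.57 to 5.08, 4.70 to 8.25 and 3.63 to 5.65 CPM in the 3 groups, with an age difference of 0.82 (SE 0.33, adjusted p = 0.114). Liver gave 0, 1, 1 and 1 counts in young mice, 2, 6 and 2 with vehicle and 1, 1 and 1 with ABT-737, a pooled ratio of 4.22 for vehicle against young (exact 95% interval 1.09 to 23.9) whose interval reached 1 without young replicate 1, 2 or 3 or vehicle replicate 3 or 4 (ratios from 3.12 to 4.59). Skin varied most, from 4.27 to 17.1 CPM with vehicle and 6.49 to 40.3 with ABT-737, and the age difference of 0.09 had a 95% interval of -1.26 to 1.44. In no tissue was the gene called lower with age.

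Genes of dividing cells moved with Lmnb1 and Cdkn2d in lung. There 10 of 15 proliferation genes tested were called higher with age, led by Top2a (2.82), Birc5 (2.77), Plk1 (2.47) and Aurkb (2.39), and the list summed to 230.1 to 269 CPM in young mice, 430.1 to 616 with vehicle and 234 to 496 with ABT-737. Vehicle replicate 5 had the highest proliferation sum, the highest leukocyte sum and the highest Lmnb1, Cdkn2d and Cdkn2a in lung. Kidney had 1 of 9 proliferation genes called higher with age (Mcm6, 0.68), skin 0 of 15 (median 0.53), and liver had none that could be tested. The shares of all genes called with age were 12.9% in lung, 13.3% in kidney and 11.2% in skin. Between ABT-737 and vehicle none was called in any tissue, with medians of -0.46 in kidney, -0.89 in lung and 0.24 in skin. The part of dividing cells or leukocytes in the Lmnb1 and Cdkn2d results was not tested. Of 8 other lamina genes, only Lbr, the lamin B receptor, was called with age, lower in kidney (-1.27, adjusted p = 0.00494), with medians of 0.10 in liver, -0.02 in lung and 0.32 in skin, and none was called between ABT-737 and vehicle, with medians of 0.14, -0.01, 0.01 and 0.12 in kidney, liver, lung and skin.

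**Figure D3:**
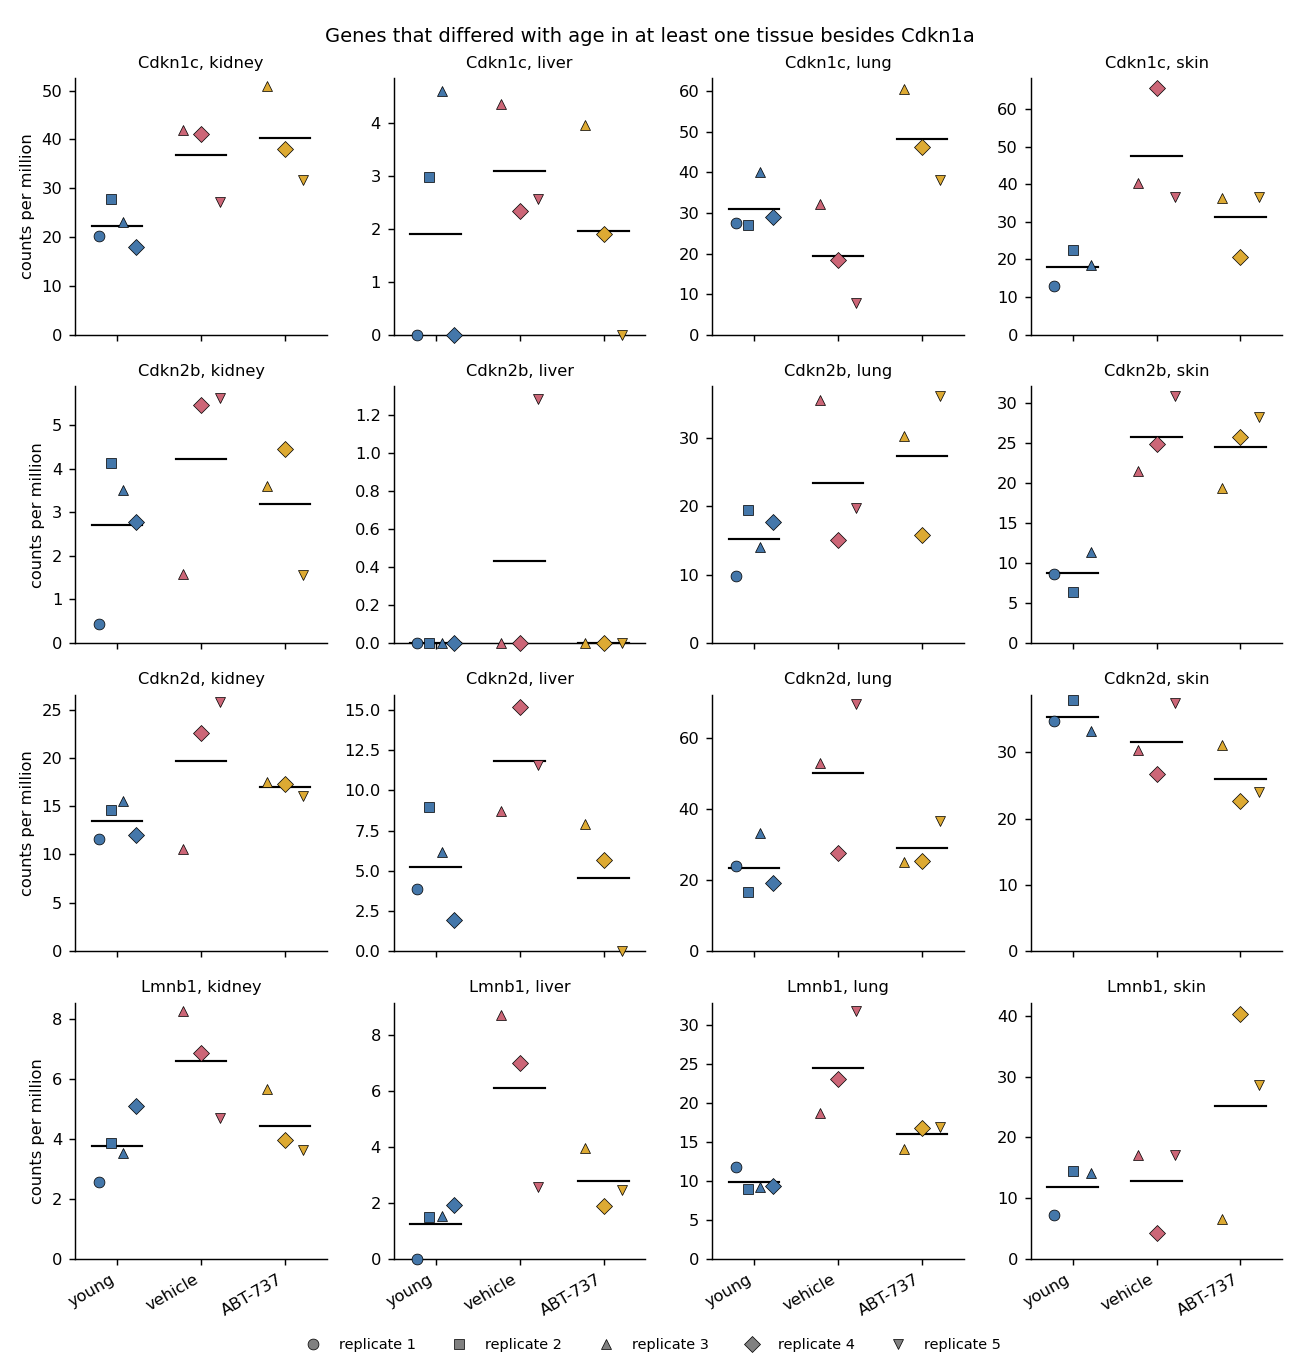
Cdkn1c, Cdkn2b, Cdkn2d and Lmnb1 in every library, in CPM on linear axes that start at 0 and differ between panels; points are libraries, shapes replicate numbers and lines group means. Lmnb1 in lung is highest in the 3 vehicle libraries (18.8 to 31.8), and Cdkn2b in skin is higher in both old groups (19.5 to 30.9) than in young mice (6.33 to 11.4).

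Trp53 (chr11:69580359-69591873) was not called with age or with ABT-737 in any tissue. Kidney had 12.5 to 15.9 CPM in young mice, 10.6 to 13.1 with vehicle and 10.9 to 16.6 with ABT-737, lung 22.2 to 42.6, 10.1 to 42.5 and 21.1 to 30.4, and skin 9.10 to 15.5, 3.56 to 10.2 and 6.23 to 27.7. The age differences were -0.32 in kidney (95% interval -0.76 to 0.13), -0.09 in lung (-0.87 to 0.68) and -0.64 in skin (-1.79 to 0.51). Liver gave 1 to 9 counts per library. p53 is controlled mainly at the level of the protein, which was not measured in these files.

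Mdm2 (chr10:117688875-117710758), a p53 target as well as its antagonist, was called nowhere. In kidney the young mice had 42.9, 51.5, 48.3 and 48.5 CPM, the vehicle group 56.1, 64.3 and 61.5 and the ABT-737 group 65.8, 53.4 and 61.8. Both old groups lay above the young mice, by 0.34 (SE 0.14, adjusted p = 0.135) and 0.33 (SE 0.14, adjusted p = 0.251). In liver, lung and skin the age differences were 0.02, 0.17 and -0.18, with 95% intervals of -0.65 to 0.70, -0.32 to 0.66 and -0.51 to 0.15.

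Among 22 other p53 target genes, 1 of 19 tested in skin was called higher with age (Zmat3 by 0.75), 4 of 15 in kidney (Sesn2 by 2.14, Bbc3 by 1.13, Ddit4l by 0.79 and Gadd45a by 0.54), 2 of 7 in liver (Btg2 by 1.80 and Bax by 1.0) and 0 of 18 in lung, beside 11.2%, 13.3%, 22.6% and 12.9% of all genes tested. None was called lower, and none was called between ABT-737 and vehicle. The medians with age were 0.20, 0.19, 0.52 and 0.29 in kidney, liver, lung and skin, and those for ABT-737 against vehicle -0.08, -0.25, -0.29 and 0.11, beside medians of all genes tested between -0.03 and 0.05. Sesn2, Ddit4l and Gadd45a also respond to stress other than p53 activation. Of 10 p53 regulators none was called with age or with ABT-737 (medians with age 0.07, 0.22, 0.63 and 0.10, with ABT-737 0.06, 0.48, -0.14 and 0.02; only 1 was tested in liver).

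Among the 18 cyclins, CDKs, E2F factors and pocket proteins on which the inhibitors act, 6 of 17 were called higher with age in lung (led by Ccnb1, Ccna2, Ccne1 and Cdk1, by 4.21, 2.15, 2.10 and 1.27), 3 of 14 in kidney (E2f2 by 1.39, Ccnd1 by 0.81 and Ccnd2 by 0.62), 1 of 5 in liver (Ccnd2 by 1.08) and 0 of 17 in skin (median 0.60). Of all genes tested, 12.9%, 13.3%, 22.6% and 11.2% were called in these tissues. Between ABT-737 and vehicle, Ccnd2 was called lower in kidney (-1.16, adjusted p = 0.00306), and none was called in liver (median -0.45), lung (-0.21) or skin (0.53). Of 12 regulators of the INK4 locus, such as the Polycomb proteins that silence it, 1 of 11 was called lower with age in kidney (Id1, -0.66), 2 of 4 higher in liver (Cbx7, 1.2, and Junb, 1.03), and none of 11 in lung (median 0.38) or of 12 in skin (median 0.32), beside the same shares of all genes with age. None was called between ABT-737 and vehicle, with medians of 0.07, -0.37, -0.01 and 0.37.

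Counted over the set, 1 of 2 genes tested in liver, 2 of 8 in kidney, 2 of 9 in lung and 2 of 9 in skin were called with age, each of them higher, beside 22.6%, 13.3%, 12.9% and 11.2% of all genes tested, and DESeq2 called as many. The median differences of the tested members in kidney, lung and skin were 0.42, 0.17 and 0.09, beside 0.01, 0.04 and 0.05 over all genes. In liver the median of 2.94 is only the midpoint of Cdkn1a (5.86) and Mdm2 (0.02). Cdkn1a, with 2 to 5 counts per young liver, passed the filter on its counts in old livers, so the liver values do not describe the set. Between ABT-737 and vehicle edgeR called none of the members in any tissue, and DESeq2 none, with 1 of 8 in kidney (Cdkn1a), 0 of 2 in liver, 1 of 9 in lung (Cdkn1c) and 0 of 9 in skin at an unadjusted p under 0.05, beside 14.8%, 16.1%, 16.1% and 7.97% of all genes tested. Against young mice the ABT-737 group had Cdkn1a called in kidney and liver, Cdkn2b in skin and no member in lung.

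**Figure D4:**
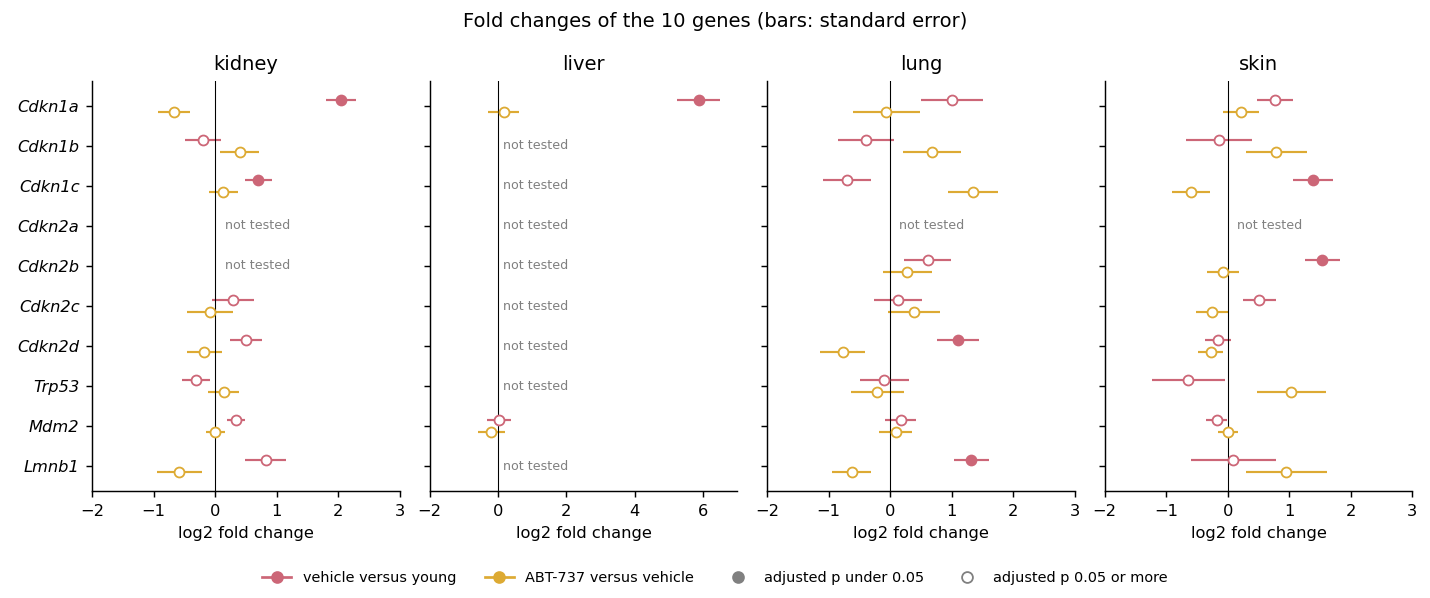
Log2 fold changes of the 10 genes in each tissue for vehicle against young and ABT-737 against vehicle, with bars of 1 standard error; filled points have an adjusted p under 0.05, and genes below the expression filter are marked as not tested. Filled points are all on the higher side of vehicle against young (Cdkn1a in kidney and liver, Cdkn1c in kidney and skin, Cdkn2b in skin, Cdkn2d and Lmnb1 in lung), and every ABT-737 against vehicle point is open. The liver axis is wider than the others.

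In young mice Cdkn1a and Cdkn2b were called in each pair of kidney, liver and lung. Of these tissues, Cdkn2b passed the expression filter on its own only in lung. Its kidney and liver call set 34 counts against 0, near the floor. Levels here come from the fit of 30 libraries, and skin, deposited in another table, cannot be set beside them. Cdkn1a was lowest in liver at 6.76 ± 2.43 CPM (SD, n = 4), then kidney at 26 ± 3.28, and highest in lung at 300.3 ± 56.6, and each neighbouring pair differed: kidney over liver 3.73-fold (adjusted p = 0.0313) and lung over kidney 11.5-fold (adjusted p = 3.48e-08). The kidney and liver pair missed the threshold without liver young replicate 1, 3 or 4 or lung ABT-737 replicate 4 (adjusted p from 0.0534 to 0.0743). Cdkn2b had 0 counts in 4 young livers. Assuming 3 counts there, it was 1.52-fold higher in kidney and 6.86-fold higher in lung, without the counting error of those tissues. Lung was 4.63-fold above kidney (adjusted p = 8.20e-05). Cdkn1c was 2.61 ± 3.15 CPM in liver, 20.0 ± 4.09 in kidney and 24.7 ± 4.85 in lung, of which kidney and lung did not differ detectably (adjusted p = 0.394). Lung was also above kidney for Lmnb1 (2.33-fold, adjusted p = 0.000888), Cdkn1b (2.19-fold, adjusted p = 0.00727) and Trp53 (1.89-fold, adjusted p = 0.0103), and above liver for Lmnb1 (4.41-fold), Trp53 (2.51-fold) and Cdkn2d (2.49-fold, adjusted p = 0.0139). The Cdkn2b call between kidney and liver was lost without 11 of the 30 libraries (adjusted p from 0.0502 to 0.0965), that of Cdkn1b without lung young replicate 3 (0.0795), that of Trp53 between lung and kidney without lung young replicate 4 (0.0596) and that of Cdkn2d without liver young replicate 4 (0.0608). Mdm2 did not differ detectably, at 42.9 ± 3.56 CPM in kidney, 37.2 ± 6.11 in liver and 45.7 ± 11 in lung.

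In all, 3 of 9 members were called between liver and kidney, 5 between lung and kidney and 6 between lung and liver, beside 41.2%, 64.3% and 62.2% of 13107 genes. With DESeq2's size factors the median of all genes moved from 0.02 to 0.28 between lung and kidney, from 0.45 to 0.60 between lung and liver and from -0.39 to -0.28 between liver and kidney. Under that scaling Cdkn2c and Cdkn2d also passed between lung and kidney and Cdkn2c between lung and liver, and Cdkn2b no longer passed between liver and kidney (adjusted p = 0.0585).

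**Figure D5:**
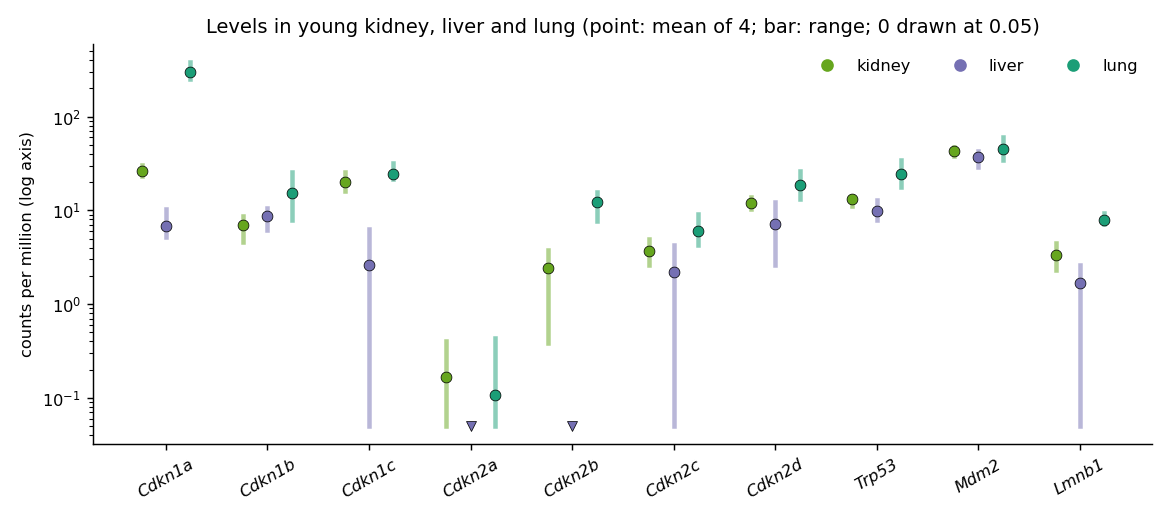
Levels of the 10 genes in young kidney, liver and lung, in CPM on a log axis; points are means of 4 mice, bars the range, and a level of 0 is drawn as a triangle at 0.05. Cdkn1a runs from 6.76 in liver to 300.3 in lung, and Mdm2 from 37.2 to 45.7. Levels of different genes are not to be compared.

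The genes whose pattern over the 9 groups of kidney, liver and lung was most like that of each member were found by the root-mean-square difference (RMS) of log2 CPM profiles centred on their own mean, among 13107 genes. No gene followed Cdkn1a closely, whose profile had an SD of 2.01 around its mean: Galnt6, Htra3 and Zbtb16, the last a glucocorticoid target, lay at an RMS of 0.99, 1.0 and 1.08. Cdkn1c was followed at 0.15 by Pde4d, Cdkn2b at 0.25 by Scel and Cdkn2d at 0.22 by Mcm6, a replication licensing factor. Lmnb1 was nearest to Ptpn1, Zbtb32 and Ifi30, at 0.15, 0.19 and 0.19. Trp53 lay nearest to Dcp2 (0.13), Mdm2 to Tab2 (0.13), Cdkn1b to Tmem265 (0.22) and Cdkn2c to Chmp4b (0.17). The profile of Mdm2 had an SD of only 0.27, so a small RMS says little about its likeness to other genes. These likenesses are a description over 30 libraries, in which differences between tissues weigh most.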

How the data were processed

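RNA from 4 tissues was sequenced in 39 libraries, 30 in the table of kidney, liver and lung and 9 in that of skin. The authors deposited raw counts per gene without normalization; per the submitters' processing notes bcl2fastq, HISAT 0.1.5, HOMER and the build mm10 were used. Strand use and collapsing of molecular barcodes are not given in the sources used here. Counting intervals thus cover counting error only, floors are assumed counts, and p-values measure the spread between these libraries. Rows of the skin table are Ensembl transcripts; that of Trp53 covers only the 3′ part of the gene, and 26 symbols read as dates.

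R 4.3.3 with edgeR 4.0.16 (on limma 3.58.1) was used for all tests. The 3 groups of a tissue were fitted together after edgeR's expression filter and TMM scaling, and contrasts were tested with the quasi-likelihood test at a Benjamini-Hochberg adjusted p under 0.05 over all genes tested. Tissues were compared in 1 fit of 30 libraries. Standard errors are the log2 fold change over the square root of F, and 95% intervals use 1.96 standard errors. Near the floor, counts pooled over a group and scaled by depth were compared with an exact conditional interval. Where a group had 0, a ratio with 3 counts assumed for that group is given, which leaves out the counting error of the other group. Biological variation between libraries (edgeR's coefficient) ran from 16.5% in kidney and 23.5% in liver to 31.7% in lung and 34.9% in skin. No libraries were so alike that they had to be counted once.

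The members and lists were chosen with earlier results of these data known. All 10 members are named everywhere; of each of 9 further lists the called genes are counted, at most 4 with the largest change are named per tissue and contrast, and the 3 genes most alike in profile may be named. The method was tested on simulated data. Alternatives were DESeq2 1.42.0, its size factors in edgeR, no expression filter, the compared groups only, the replicate number as a block, and each library left out; leaving libraries out of the pooled counts of Cdkn2a, and of Cdkn1a and Lmnb1 in liver, was added after seeing the data. Vehicle and ABT-737 libraries share the numbers 3, 4 and 5. Only in lung were the correlations of deviations positive for all 3 same-numbered pairs (0.18, 0.30 and 0.43), where other pairs ran from -0.57 to 0.30. These values do not show pairing, and young libraries were not compared. Blocked values stand beside the lung results whose call they change. In blocked age differences young replicates 1 and 2 stand alone in their blocks and add nothing.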

Additional observations from a re-analysis of the deposited data

Results flagged for a closer look

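Among 28 groups of 4 young libraries in which a member varied, 3 held a lone value by Dixon's ratio of the gap to the range, where chance gives about 1 in 20. Cdkn1c in young lung had a ratio of 0.847, with replicate 3 at 40.2 CPM above 27.1 to 29.1. Lmnb1 in young lung had 0.884, with replicate 1 at 11.8 CPM above 9.04 to 9.36. Cdkn2a in young lung had 1, because a single count was seen in replicate 3 and none in the others. Without those libraries the age differences in lung were -0.55 for Cdkn1c and 1.42 for Lmnb1, both on the same side of the threshold as with them.

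The age difference of Cdkn1a differed between tissues by the test of the difference itself, by 3.86 on the log2 scale between liver and kidney (adjusted p = 0.0154) and by -4.90 between lung and liver (adjusted p = 0.000274). The liver values rest on 12 counts in 4 young livers.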

How the results depend on the processing

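Members called with age in kidney fell from 2 to 1 with the replicate block, which also gave 0 in lung and 0 in skin in place of 2, 0 in skin for ABT-737 against young in place of 1, and 1 for the lung and kidney difference with age in place of 0. Outside lung, correlations between same-numbered vehicle and ABT-737 libraries ran from -0.58 to 0.28, and young libraries were not compared in any tissue. The block may thus pair libraries that share only a number, and it draws nothing on age from young replicates 1 and 2. Over all genes it called 369 in place of 1474 in kidney and 0 in place of 1592 in skin with age. DESeq2 and no expression filter each gave 2 members for ABT-737 against young in kidney and in skin in place of 1, and no filter gave 1 for the lung and kidney difference with age. DESeq2's size factors and the compared groups alone moved no count of called members by more than 1.5 times. Leaving out 1 library at a time gave 1 to 2 members with age in kidney, 0 to 2 in lung and 0 to 4 in skin; for ABT-737 against young 1 to 2 in kidney and 0 to 2 in skin; 0 to 1 for the liver and kidney difference with age, 0 to 1 for lung and kidney, and 1 to 3 for young liver and kidney. For ABT-737 against vehicle 0 members were called under every alternative run, in each tissue and between tissues. No called value changed its sign under any alternative, while 90 uncalled values did so, counted over genes, comparisons and libraries left out 1 at a time, as did 8 with the replicate block, 4 with DESeq2's size factors, 4 without an expression filter, 3 with DESeq2 and 1 with the compared groups alone. The cause of these shifts was not tested. Depth limits liver most, where 8 of the 10 genes could not be tested.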
